A study of Mus musculus with 4 samples.

Results

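The genes described here are the Sprouty genes Spry1, Spry2, Spry3 and Spry4, the Spred genes Spred1, Spred2 and Spred3, and the dual specificity phosphatase genes Dusp4, Dusp5 and Dusp6, which together form the feedback brake on ERK signalling. They were chosen by gene symbol, all 10 symbols were found among the 55421 genes of the count table, and all 10 passed the low-count filter that left 20232 genes for testing. RNA was sequenced from primary cultures of CD1 mouse spermatogonia (SSC cultures), with 2 Veh and 2 NRRA libraries. For the libraries of both groups the labels give a culture medium with the N2 supplement, bFGF (10 ng/ml) and GDNF (at the same concentration), while the study's list of media gives another concentration of GDNF. In the Veh group the cultures were kept in complete medium. In the NRRA group the cultures were given nutrient restriction medium plus retinoic acid (RA), for 2 days by the study's methods. By the methods, that medium is complete medium diluted with a large excess of a balanced salt solution, so bFGF, GDNF and serum were diluted along with the nutrients. The cultures of both groups were started from neonatal testes and grown on irradiated mouse embryonic fibroblast (MEF) feeder cells, whose RNA may also be in the libraries. Libraries with RA alone or nutrient restriction alone were not analysed here, so the effects of RA, of fewer nutrients and of less growth factor cannot be told apart.

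ERK is the last kinase of the RAS, RAF, MEK and ERK chain that receptor tyrosine kinases switch on. In SSC culture the relevant receptors are RET with its coreceptor GFRA1, which bind GDNF, and the FGF receptors, and both growth factors are needed for self-renewal. Active ERK induces genes whose products shut the chain off again. SPRY proteins act between the receptor and RAF, SPRED proteins hold RAS inactive by bringing the RAS GTPase-activating protein neurofibromin to the membrane, and the DUSP enzymes remove phosphate from ERK itself. Transcripts of these genes are therefore often read as a record of recent ERK activity, although phosphorylated ERK was not measured in these libraries.

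The counts assigned to genes totalled between 28022265 and 31604769 in a library, and a count of 3 corresponded to between 0.0921 and 0.111 CPM (counts scaled to a common library size). Stra8, which RA induces directly, rose from 9.85 ± 0.325 to 1858 ± 7.88 CPM (SD, n = 2 each). As a check for a library deposited more than once, the counts of a group's replicates were compared, and they differed beyond counting noise, with a chi-square per degree of freedom of 2.45 in Veh and 1.99 in NRRA. This check does not tell biological from technical spread. The study describes its sequencing replicates as biologically independent, the source culture or mouse of each library is not in the labels, and p-values measure the spread between these libraries.

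Most of the feedback genes fell. Of the 10 genes, 9 passed the edgeR test as lower in NRRA (p adjusted by Benjamini and Hochberg over all genes tested, threshold 0.05), beside 28.4% of all tested genes called lower, 27.9% called higher and 56.4% called in either direction. The count was 8, without Spry3, with DESeq2, with library size only, without the low-count filter, and when any 1 library was left out. None of the 10 was called higher, with a count of 0 also at an unadjusted p under 0.05 and with DESeq2, and a count of 1 by edgeR with library size only in place of TMM scaling. Falls of at least 2-fold were called for 5 of the 10, and rises of that size for 0, beside 7.02% and 6.29% of all tested genes. With library size only, Spred1 (-0.95) and Dusp5 (-0.99) fell short of a 2-fold fall, which left Spry4, Spred3 and Dusp6. The libraries of the groups did not overlap for 9 of the 10, all lower in NRRA, beside 76.7% of all tested genes in either direction and 38.6% lower. The median log2 fold change (NRRA over Veh) of the 10 was -0.97, and that of all tested genes was 0.00029. The median SE of the 10 was 0.046, beside 0.10 for all tested genes, so a call was easier to reach among the 10. Summed over the 10 genes, the level was 1113 and 1124 CPM in Veh and 462 and 459 CPM in NRRA. In bulk libraries fewer cells of a type and less RNA per cell cannot be told apart.

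**Figure D1:**
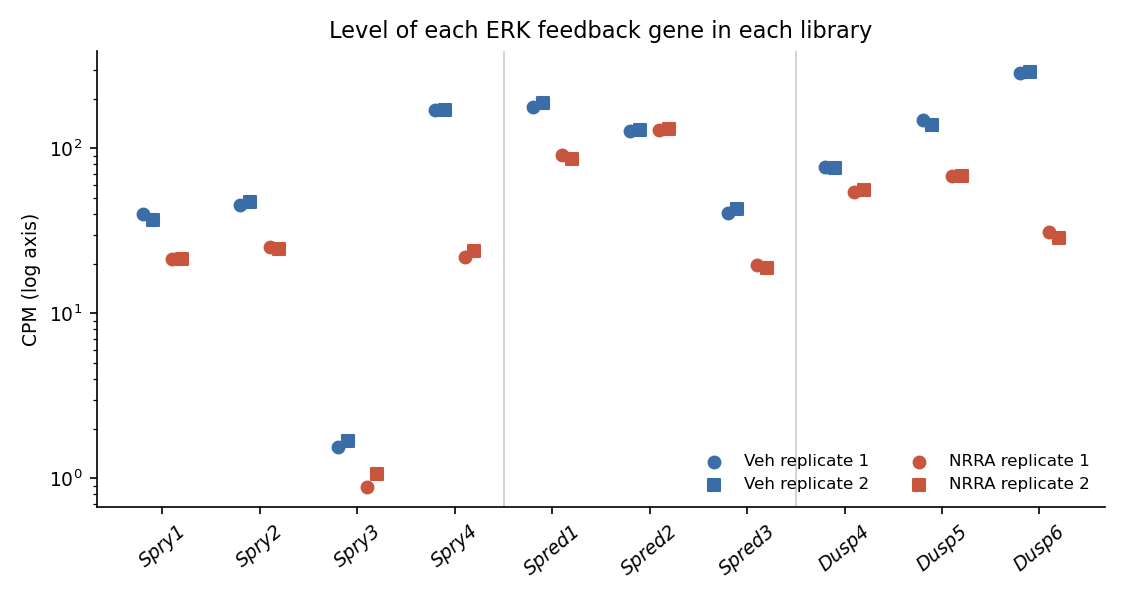
CPM (log axis) of each ERK feedback gene in each of the 4 libraries, with Veh in blue, NRRA in red, circles for replicate 1 and squares for replicate 2. The Veh points lie above the NRRA points for 9 genes, most widely for Spry4 and Dusp6, and the groups overlap for Spred2.

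The changes were very unequal among paralogs. Dusp6 and Spry4 fell to 10.4% and 13.3% of their Veh level. The other Sprouty genes, Spred1, Spred3, Dusp4 and Dusp5 kept between 46% and 72.8% of it, and Spred2 was at 101%. Each family thus held a gene whose change differed clearly from that of a paralog, and the families are described in turn.

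Promoter sequence was looked at because paralogs with unequal changes could be set beside each other. RefSeq windows (GRCm38.p6, 250 bases before to 50 bases after a start) were matched by symbol for 7 of the 10 genes, namely Spry1, Spry2, Spred1, Spred2, Spred3, Dusp5 and Dusp6. No window was matched for Spry3, Spry4 or Dusp4, so Spry4 and Dusp4 could not be set beside their paralogs. The letters CGGAAG or CTTCCG, the core bound by many ETS factors (the family of ETV5 and other ERK-regulated factors), occurred in 16.9% of all 32851 windows and in those of Spred1, Spred2 and Dusp6. The 30 bases around this match in the plus strand are shown for the gene that fell most, a gene that fell moderately and the gene that did not change, with the match in capitals.
Dusp6 at chr10:99263157-99263186: cggcaacagcccCTTCCGcagcgcgctcat
Spred1 at chr2:117121041-117121070: ccggttcgagcggCGGAAGgagcgggcggc
Spred2 at chr11:19924387-19924416: aagacgtcatcgCTTCCGccctacttcctc

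The match was present in Dusp6, with the largest fall, and in Spred2, with no detectable change, and its part in the changes was not tested. Another match of Spred1 lay within the 50 bases after the start. The CArG box, the element bound by serum response factor, occurred in 1.63% of all windows and in 1 of the 7, that of Dusp5, where 2 matches lay next to each other, shown in capitals.
Dusp5 at chr19:53529058-53529087: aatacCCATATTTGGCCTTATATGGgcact

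The core of a cyclic AMP response element (TGACGT or ACGTCA) was found in Spred2 and Dusp5 and in 7.51% of all windows. The GC box (GGGCGG or CCGCCC) was found in 5 of the 7 and in 35.7% of all windows. The AP-1 element TGANTCA (7.81% of all windows), the E-box CACGTG (7.15%) and a direct repeat bound by RA receptors (GGTCANNNNNGGTCA, either strand, 0.0761%) were not in the 7 windows. The RefSeq starts of Spred2, Spred3 and Dusp5 lie downstream of the first base of the gene in the annotation used for coordinates, and that of Spred1 lies upstream of it, with its whole window outside the annotated gene. A match is a description of the letters and not of a bound site.

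Sprouty proteins carry a cysteine-rich domain that targets them to membranes and takes part in RAF binding. Spry4 (ENSMUSG00000024427, GRCm38 chromosome 18, 38586247 to 38601415, minus strand) is a standard reporter of FGF signalling in embryos and stem cells. It had 170.3 and 171 CPM in the Veh libraries and 21.8 and 23.8 CPM in the NRRA libraries, so that the groups lay far apart. Its log2 fold change was -2.91 (edgeR adjusted p 8.28e-26, SE 0.046), a 7.51-fold difference. Of all tested genes, 0.969% had a lower log2 fold change.

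Spry2, the best studied member of the family as an inhibitor of FGF receptor signalling (ENSMUSG00000022114, chromosome 14, 105891947 to 105896819, minus strand), had 45.2 and 47.1 CPM in Veh and 25.1 and 24.7 CPM in NRRA. The groups did not overlap, and the log2 fold change was -0.89 (edgeR adjusted p 1.94e-12, SE 0.061). Spry1 restrains RET signalling in the developing kidney (ENSMUSG00000037211, chromosome 3, 37639947 to 37644598, plus strand). It had 39.8 and 37 CPM in Veh and 21.3 CPM in both NRRA libraries, a log2 fold change of -0.85 (edgeR adjusted p 3.01e-11, SE 0.067). The falls of Spry1 and Spry2 were close to each other and much smaller than that of Spry4. On the opposite strand Gm42922 covers 24.4% of the exonic bases of Spry1, and the strand setting of the counting is not given in the sources used here. For Gm42922 the counts were 109 and 93 (Veh) and 76 and 71 (NRRA), a small number beside the 642 to 1101 counts of Spry1.

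Spry3 (ENSMUSG00000061654) lies on a scaffold outside the assembled chromosomes of GRCm38 and was the least abundant of the 10, with 42 and 50 counts in Veh and, in NRRA, 29 and 32. These are 1.55 and 1.68 CPM in Veh and 0.89 and 1.06 CPM in NRRA. The groups did not overlap, but the log2 fold change of -0.73 had an SE of 0.30 (edgeR adjusted p 0.0394). The call was lost with DESeq2 (adjusted p 0.264), with library size only (edgeR adjusted p 0.0699), without the low-count filter (edgeR adjusted p 0.0614), and when any 1 of the 4 libraries was left out, with edgeR adjusted p between 0.0611 and 0.201. The log2 fold change was -0.72 with DESeq2 and without the filter, -0.64 with library size only and between -0.86 and -0.60 with a library left out, and the cause of the lost calls was not tested.

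SPRED proteins share the Sprouty domain and add an EVH1 domain, which binds neurofibromin. Spred1, whose human counterpart is mutated in Legius syndrome (ENSMUSG00000027351, chromosome 2, 117121374 to 117182279, plus strand), had 179 and 188 CPM in Veh and 91.2 and 86.6 CPM in NRRA. The groups were well separated, and the log2 fold change was -1.04 (edgeR adjusted p 1.93e-18, SE 0.037). Spred3 (ENSMUSG00000037239, chromosome 7, 29158829 to 29170411, minus strand) had 40.6 and 42.6 CPM in Veh and 19.5 and 18.8 CPM in NRRA. Its log2 fold change was -1.12 (edgeR adjusted p 1.01e-13, SE 0.067), and it too was separated between the groups.

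Spred2 was the exception (ENSMUSG00000045671, chromosome 11, 19924375 to 20024026, plus strand). It had 127 and 129.8 CPM in Veh and 128 and 131 CPM in NRRA, so that the groups overlapped in part. The log2 fold change was 0.016 (edgeR adjusted p 0.722, SE 0.035). Its sign rested on the libraries used, at -0.0018 without Veh replicate 1 and up to 0.036 without another library. With library size only in place of TMM scaling, Spred2 was called higher, with a log2 fold change of 0.11 (edgeR adjusted p 0.0109). That scaling moved the median of all tested genes to 0.09. With TMM scaling, Spred2 did not change detectably while its neighbours in the family fell by 1.04 and 1.12 on the log2 scale.

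**Figure D2:**
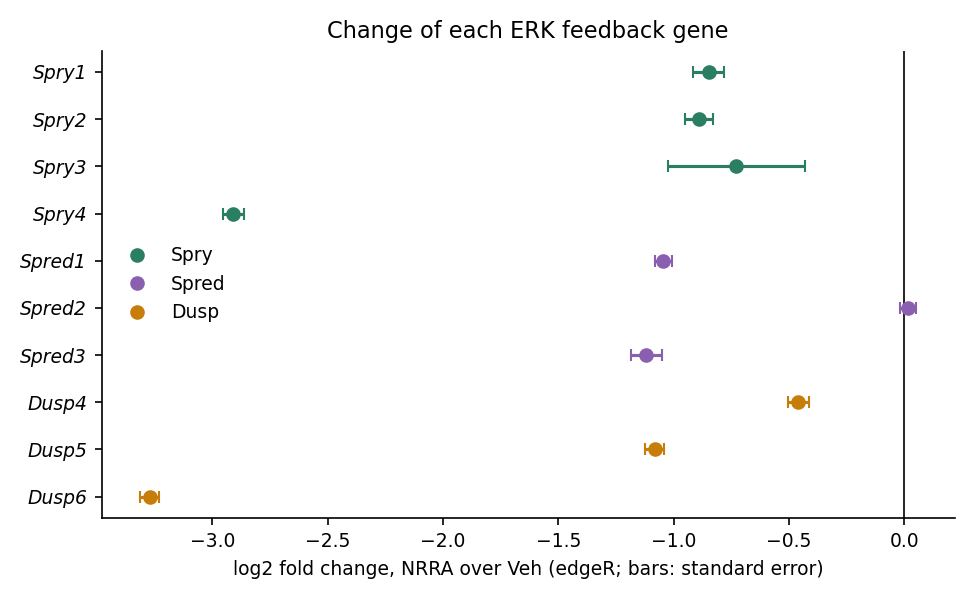
log2 fold change of each ERK feedback gene, NRRA over Veh, from edgeR with the standard error as bars, coloured by family. Spry4 (-2.91) and Dusp6 (-3.27) lie far left of the other genes, Spred2 lies at 0.016, and Spry3 has the widest bar.

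The DUSP enzymes differ in where they meet ERK. DUSP6 is a cytoplasmic phosphatase selective for ERK, DUSP5 is its nuclear counterpart, and DUSP4 is a nuclear enzyme that also acts on other MAP kinases. Dusp6 (ENSMUSG00000019960, chromosome 10, 99263231 to 99267489, plus strand) had 285 and 292 CPM in Veh and 31.2 and 28.5 CPM in NRRA. This was the widest separation among the 10 genes, with a log2 fold change of -3.27 (edgeR adjusted p 3.85e-28, SE 0.041), a 9.65-fold difference. Of all tested genes, 0.692% had a lower log2 fold change.

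Dusp5 (ENSMUSG00000034765, chromosome 19, 53529109 to 53542431, plus strand) had 148 and 139 CPM in Veh and 68.3 and 67.5 CPM in NRRA, a log2 fold change of -1.08 (edgeR adjusted p 4.48e-18, SE 0.04). A gene annotated on the opposite strand overlaps 22.1% of its exonic bases. Dusp4 (ENSMUSG00000031530, chromosome 8, 34807297 to 34819894, plus strand) had 76.8 and 75.4 CPM in Veh and 54.6 and 56.2 CPM in NRRA. Its log2 fold change of -0.46 (edgeR adjusted p 2.48e-09, SE 0.046) was the smallest fall among the 9 called genes, and its groups were still separate.

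The difference between paralogs was next taken within each library, as the log2 ratio of their CPM, in which library scaling and gene length cancel between the groups. With 2 libraries in each group an exact permutation test (two-sided) cannot give a p below 0.333, so these differences are given with the SE from the edgeR fit and without a test. The log2 ratio of Dusp4 to Dusp6 was -1.89 and -1.95 in Veh and 0.81 and 0.98 in NRRA. The sign of the ratio was thus opposite in the groups, and the log2 fold changes of Dusp4 and Dusp6 differed by 2.81 (SE 0.061). The ratio of Dusp5 to Dusp6 was also below 0 in Veh, at -0.94 and -1.07, and above 0 in NRRA, at 1.13 and 1.24, a difference of 2.19 (SE 0.057) between their log2 fold changes. Dusp4 and Dusp5 differed less, by 0.62 (SE 0.061), with log2 ratios of -0.95 and -0.88 in Veh and -0.32 and -0.26 in NRRA.

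Among the Sprouty genes, the fall of Spry4 exceeded that of Spry1 by 2.06 (SE 0.081) and that of Spry2 by 2.02 (SE 0.077) on the log2 scale. The log2 ratio of Spry2 to Spry4 was -1.91 and -1.86 in Veh and 0.21 and 0.055 in NRRA. The log2 fold changes of Spry1 and Spry2 differed by 0.04 (SE 0.091), and the ratios of this pair overlapped between the groups, at -0.18 and -0.35 in Veh and -0.24 and -0.21 in NRRA. No difference between these paralogs was detectable. Spry3 differed from Spry4 by 2.18, with an SE of 0.30, and from Spry1 and Spry2 by 0.12 and 0.16 in size, each less than the SE of 0.30. The log2 ratios of Spry2 to Spry3 did not overlap between the groups, at 4.81 and 4.75 in Veh and 4.72 and 4.45 in NRRA. Those of Spry1 to Spry3 overlapped.

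In the Spred family, the log2 ratio of Spred1 to Spred2 was 0.50 and 0.53 in Veh and -0.49 and -0.60 in NRRA, a difference of -1.06 (SE 0.051). The log2 fold changes of Spred2 and Spred3 differed by 1.13 (SE 0.075). Spred1 and Spred3 fell by like amounts, with a difference of 0.075 (SE 0.076), although their log2 ratios of 2.14 in both Veh libraries and 2.22 and 2.20 in NRRA did not overlap between the groups. The longest transcripts of the 10 genes held no near-identical stretch (at least 95% identity over at least 100 bases) of another of the 10, and the only alignment found between 2 of them was one of 56 bases at 87.5% identity between Dusp4 and Dusp5.

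**Figure D3:**
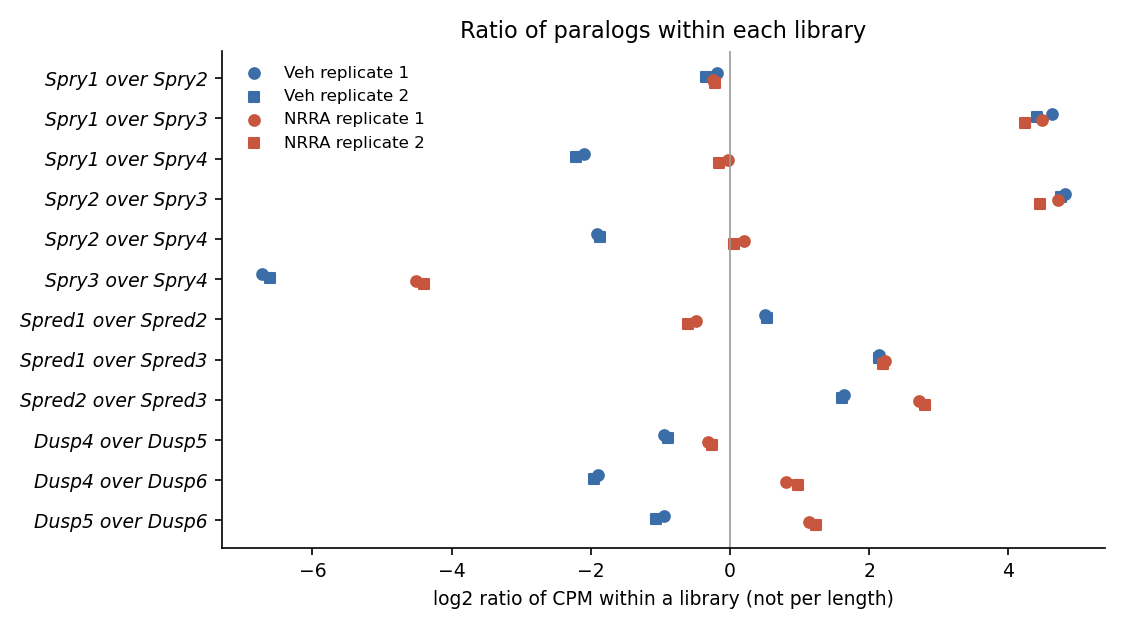
log2 ratio of CPM of each pair of paralogs within each library (not per length), with Veh in blue and NRRA in red. The ratios to Spry4 and to Dusp6 lie 2.02 to 2.81 higher in NRRA, whereas those of Spry1 over Spry2 overlap between the groups.

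The order of the genes by level changed with treatment. On the scale of CPM per kilobase of merged exons, Dusp6 was the highest of the 10 in Veh, at 91 and 93.3, followed by Dusp5 at 60 and 56.3 and Spry4 at 35.8 and 36. Dusp4, Spred2 and Spred1 came next and could not be ordered, since the libraries of Dusp4 and Spred2 overlapped, as did those of Spred2 and Spred1. Spry2, Spry1, Spred3 and Spry3 followed, each separate from the one before. In NRRA the order was Spred2, Dusp5, Dusp4, Spred1, Spry2, Dusp6, Spry1, Spry4, Spred3 and Spry3, and no neighbours overlapped. Spred2 stood first there at 27.8 and 28.4, close to its Veh level of 27.4 and 28.1, while Dusp6, Dusp5 and Spry4, which lay above it in Veh, lay below it in NRRA, the closest being Dusp5 at 27.6 and 27.3.

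As a share of the family's summed CPM per kilobase, Dusp6 made up 50.8% and 52.7% of the 3 Dusp genes in Veh and 17.3% and 16% in NRRA. Dusp5 rose from 33.5% and 31.8% of that sum to 48% in both NRRA libraries, although its own level fell. Spry4 made up 50.1% and 50.3% of the Sprouty sum in Veh and 19% and 20.5% in NRRA, where Spry2 held 49.9% and 48.5%. Spred2 held 45.5% and 44.8% of the Spred sum in Veh and 62.6% and 64.2% in NRRA.

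**Figure D4:**
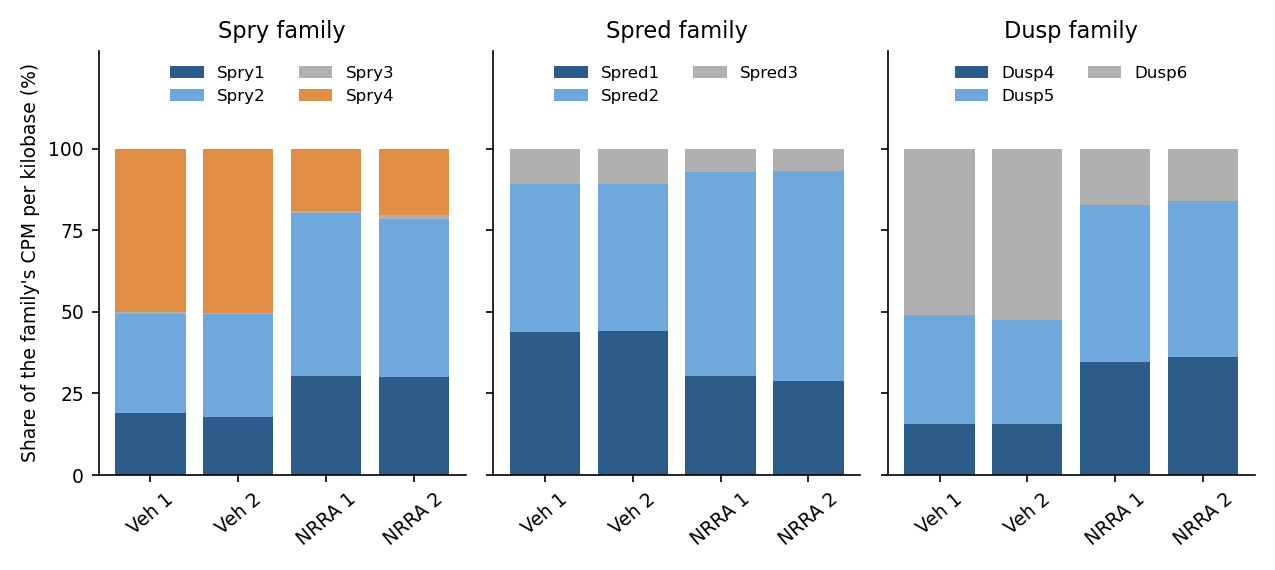
Share (%) of each gene in its family's summed CPM per kilobase of merged exons, one stacked bar per library. The segments of Spry4 and Dusp6 make up about the same share of their families in Veh and shrink in NRRA to between 16% and 20.5%, and that of Spred2 widens to 62.6% and 64.2%.

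The genes around the feedback loop were read from 5 lists of the pathway, each beside the 28.4% of all tested genes called lower and the 27.9% called higher. The 7 other MAP kinase phosphatases all passed the test, 5 (71.4%) higher and 2 (28.6%) lower, with a median log2 fold change of 0.34. The 2 that fell, Dusp9 (255.6 ± 1.54 to 131 ± 5.19 CPM, SD, n = 2 each) and Dusp7 (111 ± 2.25 to 66.4 ± 1.86 CPM), encode cytoplasmic ERK phosphatases like DUSP6. Their log2 fold changes of -0.96 and -0.74 (edgeR adjusted p 5.11e-19 and 2.43e-14) lay between those of Dusp5 (-1.08) and Dusp4 (-0.46), and that of Dusp6 was -3.27. Dusp2, a nuclear phosphatase of immune cells, and Dusp8, which acts mainly on stress kinases, rose by 0.93 and 0.76 (edgeR adjusted p 7.81e-06 and 3.61e-04), both from a Veh mean under 5 CPM.

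Of 24 other inhibitors of receptor tyrosine kinases and RAS, 12 (50%) were lower, 6 (25%) were higher (3 with DESeq2) and 6 were not called, with a median log2 fold change of -0.13. The largest fall was that of Il17rd, which encodes the FGF antagonist SEF. It had 221 and 226 CPM in Veh and 70.8 and 73.1 CPM in NRRA, a log2 fold change of -1.64 (edgeR adjusted p 3.86e-23, SE 0.035). Lrig3, a transmembrane protein related to the receptor inhibitor LRIG1, fell by 1.44 (edgeR adjusted p 8.08e-18). The largest rises were small or in scarce transcripts, with Rasal1 at 0.84 (edgeR adjusted p 0.0162) and Rasal3 at 0.36 (edgeR adjusted p 0.00694), both RAS GTPase-activating proteins. A gene on the opposite strand overlaps 13% of the exonic bases of Rasal3.

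The chain that the feedback genes act on held genes that rose and genes that fell. Of 28 genes of the RAS, RAF, MEK and ERK core and its adaptors, 13 (46.4%) were lower, 10 (35.7%) were higher and 5 were not called, with a median log2 fold change of -0.048. Sos2, a RAS exchange factor, fell most at -1.14 (edgeR adjusted p 5.30e-14), followed by the scaffold Ksr2 at -0.74 (edgeR adjusted p 5.73e-07). Mras, a RAS-related GTPase, rose most at 1.04 (edgeR adjusted p 3.18e-10), followed by the adaptor Frs3 at 0.42 (edgeR adjusted p 9.19e-04), of which 16.3% of the exonic bases overlap a gene on the opposite strand.

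Upstream receptors and ligands moved both ways, with 12 of 19 (63.2%) higher, 7 (36.8%) lower and a median log2 fold change of 0.53. Pdgfra, among the 12 higher, and Pdgfrb, among the 7 lower, were also in the list of fibroblast feeder markers described below. The GDNF receptor genes were the 2 that fell most. Ret had 456 and 448 CPM in Veh and 64.5 and 63.6 CPM in NRRA, a log2 fold change of -2.82 (edgeR adjusted p 5.60e-29, SE 0.031), which is near those of Spry4 and Dusp6. Gfra1 fell by 1.38 (edgeR adjusted p 3.57e-20). Kit, the receptor of differentiating spermatogonia, which also signals to ERK, rose from 10.7 ± 0.417 to 516 ± 6.44 CPM (SD, n = 2 each), a log2 fold change of 5.59 (edgeR adjusted p 6.42e-33). Fgfr3 rose by 1.69 (edgeR adjusted p 1.19e-14), from a mean of 8.11 CPM in Veh to 26.2 CPM in NRRA. A gene on the opposite strand overlaps 13.9% of its exonic bases. Fgfr2 and Fgfr4 also rose, by 0.90 and 1.42. Fgfr1, the most abundant of the FGF receptor genes, fell from a mean of 216 to 164 CPM, a log2 fold change of -0.40 (edgeR adjusted p 3.69e-11).

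Most genes of a list of ERK targets also fell. The list holds genes that ERK signalling induces and the ETS factor genes Elk1, Elk3 and Elk4, whose proteins ERK phosphorylates. Of its 20 genes, 17 were lower, these 3 Elk genes included, 2 were higher and 1 was not called, against 28.4% lower and 27.9% higher among all tested genes, with a median log2 fold change of -0.80. The immediate early transcription factor genes Egr2 and Egr3 fell most, with log2 fold changes of -4.26 and -3.36 (edgeR adjusted p 4.04e-25 and 1.70e-19), beside -3.27 for Dusp6. The 2 that rose did so by little, namely the cyclin gene Ccnd1 at 0.17 (edgeR adjusted p 1.26e-06), with 23.4% of its exonic bases overlapping a gene on the opposite strand, and Fos at 0.32 (edgeR adjusted p 0.0103). With DESeq2, without Veh replicate 2 or without NRRA replicate 1, only 1 of the 20 targets was called higher.

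**Figure D5:**
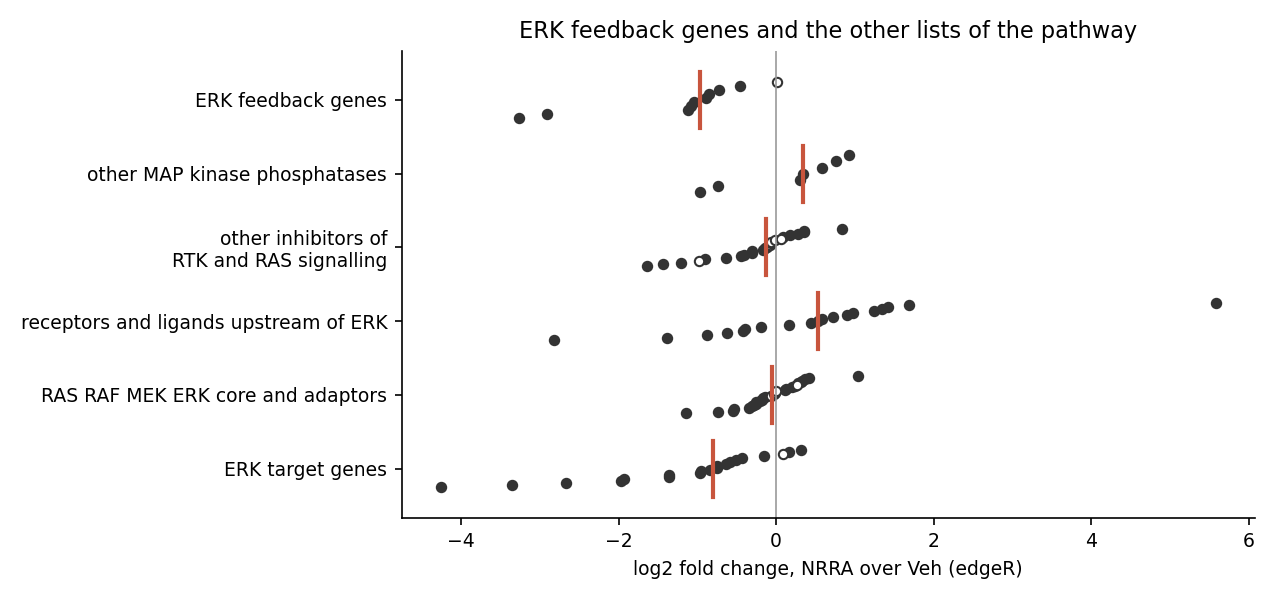
log2 fold change (NRRA over Veh, edgeR) of each gene in the ERK feedback group and in 5 lists of the pathway, with filled points for genes with an adjusted p under 0.05, open points for the others and a red line at each median. The medians of the feedback genes (-0.97) and the ERK target genes (-0.80) lie left of 0, and that of the core chain lies at -0.048.

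The genes most like Dusp6 were sought among 11317 other genes (those whose log2 CPM averaged 3 or more), by the Euclidean distance of centred log2 CPM over the 4 libraries. The 5 nearest were Id4 (distance 0.064), Mmp3 (0.10), Chrna4 (0.13), Col13a1 (0.17) and Rasl11a (0.20), with log2 fold changes between -3.46 and -3.15. Among the feedback genes the nearest to Dusp6 was Spry4, at 0.41, and the others lay between 2.16 and 3.29. With 2 groups of 2 libraries this measure mostly reflects the size of the change. Id4 marks undifferentiated spermatogonia, while Mmp3, a matrix metalloproteinase, is also made by fibroblasts, and 22.9% of its longest transcript has near-identical stretches in other annotated genes.

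Cell type markers were also read beside the 28.4% of all tested genes called lower and the 27.9% called higher. Of 12 markers of undifferentiated spermatogonia, of which Ret, Gfra1, Etv5 and Id4 were also in other lists or named above, 11 were lower, with a median log2 fold change of -2.60 and a summed share of 0.175% to 0.178% of the counts in Veh and 0.0363% to 0.0366% in NRRA. Of 12 germ cell markers, 7 were higher and 4 lower (median log2 fold change 0.14), and their share was 0.234% to 0.24% in Veh and 0.29% to 0.291% in NRRA. Of 20 fibroblast feeder markers, 16 were lower and 2 higher, with a median of -0.41, and their share was 1.1% to 1.11% in Veh and 0.879% to 0.895% in NRRA. Fibroblasts also transcribe Sprouty, Spred and Dusp genes, and the part of the feeder cells, or of the loss of undifferentiated cells, in the changes of the feedback genes was not tested. Markers of Sertoli cells, Leydig cells, macrophages and endothelium each took at most 0.00508% of the counts of a library, and Fshr, a Sertoli cell marker, was at 0 in all libraries. Of 6 endothelial markers, 3 were lower (Pecam1 -1.96, Kdr -1.46 and Vwf -3.28 as log2 fold changes), and their summed share was 0.00254% and 0.00267% in Veh and 0.000924% and 0.0009% in NRRA. Of 4 Sertoli cell markers that could be tested, only Sox9 was lower (-1.59), and the share of the list was 0.00342% and 0.00382% in Veh and 0.00172% and 0.00184% in NRRA. These 4 markers were named after their values had been seen, and the part of such cells in the changes of the feedback genes was not tested. Of 6 macrophage markers 1 was lower, and of 2 tested Leydig cell markers 1 was higher.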

How the data were processed

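Poly(A) RNA of 4 libraries (2 Veh, 2 NRRA) was measured. What the authors deposited is 1 table of unnormalized whole-number read counts for each gene. The submitters' processing notes name bcl2fastq, STAR 2.6.1c, featureCounts 1.6.4 and the build mm10. The annotation release and strand setting are not given in the sources used here. The labels name a TruSeq kit and the study's methods a stranded Tecan kit.

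Columns were matched to samples by their descriptions. The descriptions number the Veh libraries 2 and 3, the titles 1 and 2, and title numbers are used here. Counts were tested with edgeR 4.0.16 in R 4.3.3 (filterByExpr, TMM, robust quasi-likelihood F test, Benjamini-Hochberg over 20232 genes, threshold 0.05). SE is the absolute log2 fold change over the square root of F. CPM used TMM-scaled library sizes, log2 CPM a prior count of 2. DESeq2 1.42.0 was an alternative. Alternatives were other scalings, filters and prior counts, no robust estimation, a replicate block and each library left out. The fits were tested on simulated counts with few changed genes and the same dispersion for every gene, a simpler setting than that of these data. Differences between paralogs were taken from the same fit, with SE combined as if independent. Coordinates, exon lengths and overlaps came from GENCODE M21 (GRCm38), which held 99.7% of the gene identifiers, and near-identical stretches from BLAST.

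The members and lists were chosen with earlier results of these data known. The rule for named genes took the 10 genes, Stra8, the 2 largest rises and 2 largest falls past the threshold in each pathway list, the 5 genes most like the member with the largest change, and single markers at 0. Outside this rule, Pecam1, Kdr, Vwf, Sox9, Elk1, Elk3, Elk4, Gm42922, Etv4, Etv5, Ier3, Egr1, Epha2, Epha4, Fgfr1, Fgfr2, Fgfr4, Pdgfra and Pdgfrb were named after their values had been seen. The promoter motifs were chosen after the data were seen.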

Additional observations from a re-analysis of the deposited data

How the results depend on the processing

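The 8 alternatives that kept all 4 libraries were DESeq2 size factors, library size only, upper-quartile factors, no low-count filter, a filter of 1 CPM in a whole group, DESeq2, no robust estimation and the replicate block. In them 76 of the values of the 10 genes had the same sign and the same call. Spry3 lost its call with library size only (-0.64), without the filter (-0.72) and with DESeq2 (-0.72), and Spred2 gained one with library size only (0.11), which put the number of feedback genes called higher at 1; over all genes that scaling called 6962 higher and 4593 lower, beside 5654 and 5752 with TMM. The cause of the lost calls was not tested. DESeq2 called 3 of the other inhibitors higher and 1 of the ERK targets higher. With 1 library left out, the lone library of its group was assumed to vary like the other group. The feedback genes called lower were then 8 in each case and those called higher 0. Spry3 ranged from -0.86 to -0.60, Spred2 from -0.0018 (reversed without Veh replicate 1) to 0.036, the difference of Spry1 and Spry2 from -0.043 (negative without Veh replicate 2 alone) to 0.12, that of Spry1 and Spry3 from -0.24 to 0.0067 (positive without NRRA replicate 2 alone), that of Spry2 and Spry3 from -0.30 to -0.018, that of Spred1 and Spred3 from 0.065 to 0.084, and the ERK targets called higher from 1 to 2. A prior count of 0.5 in place of 2 moved no paralog ratio by more than its replicate SD. With the longest transcript in place of merged exons, 2 of the genes took another rank of level in Veh. With the replicate block, 9 feedback genes were lower and 0 higher, as without it, and over all genes 5772 were higher and 5836 lower. Deviations of libraries with the same title number correlated at -0.011 over tested genes, so no shared effect of a number was seen. With 2 libraries in each group this cannot show whether the samples were paired, and the labels do not say. The block changed no call of the 10 genes.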

Other observations

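Among the ERK targets, further genes were named after their values had been seen because they are close relatives of the feedback programme. Etv5 and Etv4, ETS factor genes induced by FGF and GDNF, went from 301 to 76.8 CPM and from 148 to 75.9 CPM (means of 2 Veh and 2 NRRA libraries), with log2 fold changes of -1.97 and -0.96 (edgeR adjusted p 3.84e-25 and 2.15e-17). Ier3, an immediate early gene whose product prolongs ERK signalling, fell by 2.67 (edgeR adjusted p 5.03e-21), and Egr1 fell by 1.93 (edgeR adjusted p 5.78e-23). Epha2, a receptor gene used with Spry4 and Dusp6 as a readout of the pathway, fell by 1.35 (edgeR adjusted p 2.62e-23), while its relative Epha4 had a log2 fold change of 0.092 (edgeR adjusted p 0.455). The difference between Epha2 and Epha4 was not tested.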
